A study of Mus musculus with 16 samples.

Results

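Endothelial cells line the inside of blood and lymph vessels, and genes typical of them were followed through adipocyte and liver RNA libraries of the same mice. The 34 genes were chosen by symbol as endothelial genes, with earlier results of these data known. All 34 were found among the 23420 genes counted in each library. Of these, 30 belong mainly to blood vessel endothelium. The other 4, Flt4, Lyve1, Stab1 and Stab2, mark lymphatic vessels or the sinusoids of the liver and are described apart from them.

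Each of 8 male mice of the C57BL/6 strain gave 1 adipocyte and 1 liver RNA library, 16 libraries in 4 groups of 4. In the knockout-labelled mice Trib1, which encodes a pseudokinase, is labelled as deleted in adipocytes alone. These are KO-1137 and KO-1139, aged 76 days, and KO-1151 and KO-1152, aged 70 days. The wild-type mice are WT-1135, WT-1136 and WT-1138, aged 76 days, and WT-1153, aged 70 days. Collagenase digestion of subcutaneous fat gave the adipocytes, while livers were extracted whole. The labels name neither the promoter used for the knockout nor the part of Trib1 it removes. Trib1 itself measured 911 to 1195 CPM (counts scaled to library size) in knockout-labelled adipocytes and 616 to 1063 CPM in wild-type adipocytes, and 49.7 to 92.8 CPM in knockout-labelled livers and 61.2 to 86.6 CPM in wild-type livers. Those groups overlapped (adipocytes, log2 difference 0.28 ± 0.18 SE, edgeR adjusted p = 0.241), so the counts of Trib1 do not check the genotype labels. Adipocyte marker genes summed to 23100 to 33640 CPM in adipocyte libraries and 209.6 to 255 CPM in liver libraries, and hepatocyte genes to 19.3 to 105 CPM in adipocyte and 139000 to 181600 CPM in liver libraries. Library totals were 28560887 to 53716669 counts, and a count of 0 allows up to 0.0476 to 0.120 CPM depending on the library. Levels below are CPM after trimmed-mean (TMM) scaling over all 16 libraries and are given in ascending order of mouse number within each group.

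Endothelial cells are held together by junctions built from VE-cadherin (Cdh5), PECAM-1 (Pecam1) and claudin-5 (Cldn5). They read vascular endothelial growth factors through the receptors Kdr, Flt1 and Flt4 and angiopoietins through the receptor Tek, and their identity genes are switched on by transcription factors of the ETS and SOX families. Fat is densely supplied with capillaries, while liver sinusoids are open, fenestrated vessels whose endothelium takes up circulating waste through scavenger receptors such as Stab1 and Stab2. Neither vessel type is made of adipocytes or hepatocytes, so these RNAs report on vascular cells in the libraries or on expression of the same genes by other cells.

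Promoter sequences from RefSeq (table of build GRCm38.p6) were found for 20 of the 34 genes, with 25 start sites in all. The ETS motif AGGAAG or its reverse complement CTTCCT was sought in the 250 bases before the start. It occurred in 13 of the 25 promoters (52%), against 29.5% of the 32851 promoters in the table. Egfl7, Erg and Tal1 have several start sites, and by gene 12 of the 20 held a match. The Erg match lies before a start site 127245 bases from the gene start in GENCODE M21, and the Erg promoter at that gene start held none. The SOX motif AACAAT or its reverse complement ATTGTT occurred in 4 of the 25 (16%, against 9.42% of all promoters). The GATA motif AGATAA or its reverse complement TTATCT occurred in 3 of the 25 (12%, against 9.99%). Both strands were searched, and matches of different motifs may overlap. The following 5 promoters hold 2, 1 or 0 matches of AGGAAG or CTTCCT (the 25 promoters held 0 to 3). They belong to genes with different roles: the receptors Flt1, Eng and Tek, the junction protein Cldn5 and the scavenger receptor Stab1. They run 5′ to 3′ on the strand of the gene up to the base before the start, with AGGAAG or CTTCCT in capitals.
Flt1, chr5:147726012-147726261, minus strand: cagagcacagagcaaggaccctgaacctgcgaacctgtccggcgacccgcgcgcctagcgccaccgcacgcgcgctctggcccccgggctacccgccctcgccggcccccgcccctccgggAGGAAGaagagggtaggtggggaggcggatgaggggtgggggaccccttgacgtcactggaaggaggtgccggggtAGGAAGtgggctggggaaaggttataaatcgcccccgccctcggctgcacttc
Eng, chr2:32646345-32646594, plus strand: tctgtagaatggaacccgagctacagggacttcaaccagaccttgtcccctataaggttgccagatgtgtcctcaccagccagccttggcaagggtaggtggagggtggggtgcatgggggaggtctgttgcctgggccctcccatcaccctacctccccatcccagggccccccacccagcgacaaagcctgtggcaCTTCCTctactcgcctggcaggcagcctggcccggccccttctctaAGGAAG
Stab1, chr14:31168642-31168891, minus strand: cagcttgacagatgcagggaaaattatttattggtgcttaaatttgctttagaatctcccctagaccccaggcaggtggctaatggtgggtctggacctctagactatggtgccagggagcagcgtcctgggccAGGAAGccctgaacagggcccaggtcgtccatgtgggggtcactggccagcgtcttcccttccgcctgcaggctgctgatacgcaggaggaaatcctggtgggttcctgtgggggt
Cldn5, chr16:18776597-18776846, plus strand: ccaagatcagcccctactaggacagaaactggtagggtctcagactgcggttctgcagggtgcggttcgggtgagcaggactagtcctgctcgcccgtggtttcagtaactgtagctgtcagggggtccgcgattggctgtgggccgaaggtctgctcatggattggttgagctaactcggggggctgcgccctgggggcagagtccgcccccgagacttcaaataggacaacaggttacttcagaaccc
Tek, chr4:94739039-94739288, plus strand: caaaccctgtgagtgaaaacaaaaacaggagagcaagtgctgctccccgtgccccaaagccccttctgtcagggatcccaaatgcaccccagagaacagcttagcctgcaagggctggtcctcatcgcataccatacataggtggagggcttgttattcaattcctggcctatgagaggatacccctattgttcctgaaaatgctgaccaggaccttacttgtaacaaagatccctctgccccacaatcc
Flt1 and Eng hold 2 matches of AGGAAG or CTTCCT each and Stab1 holds 1. Cldn5 and Tek hold neither sequence in this window, and Tek holds 1 match of the SOX motif. Shorter or variant ETS sequences were not searched, so a promoter without a match may still hold an ETS core. A match is a run of letters and not a bound site.

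In knockout-labelled adipocytes 29 of the 30 blood vascular genes were lower than in wild-type adipocytes and none was higher. The test was edgeR's quasi-likelihood test over all 13795 genes that passed the filter on low counts, with a Benjamini-Hochberg adjusted p under 0.05. Over all of those genes 35.2% were called, 18% higher and 17.1% lower, and the median log2 difference of all genes was -0.01. The blood vascular genes were chosen with earlier results of these data known, so their share is not an independent test. The 29 genes had log2 differences of -2.07 to -1.18 with a median of -1.86 and standard errors of 0.27 to 0.46, which correspond to 0.239 to 0.443 of the wild-type level. For 28 of the 30 genes the 4 knockout-labelled libraries all lay below the 4 wild-type libraries, while the groups of 34.3% of all tested genes did not overlap. The exceptions were Sox18, which was called, and Nos3, which was not. In a bulk library fewer endothelial cells and less of these RNAs per cell cannot be told apart.

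Among the 9 genes of junctions, adhesion and the cell surface all 9 fell, with a median log2 difference of -1.85. Pecam1, which joins neighbouring endothelial cells and is a standard marker of them, had 71.2, 57.99, 28.5 and 48.8 CPM in knockout-labelled adipocytes, against 287, 146, 204 and 99.6 CPM in wild-type adipocytes. It lies at chr11:106654217-106750628 on the minus strand (GRCm38) and differed by log2 -1.86 ± 0.35 SE, edgeR adjusted p = 0.00394. Cdh5, the cadherin of endothelial junctions, had 97.2, 90.8, 46.4 and 78.03 CPM in knockout-labelled adipocytes, against 432, 210.1, 315 and 154 CPM in wild-type adipocytes. Every knockout-labelled library was below the lowest wild-type library for both genes, and WT-1135 was the highest of all. Cdh5, at chr8:104101625-104144511 on the plus strand, differed by log2 -1.85 ± 0.33 SE, edgeR adjusted p = 0.00328.

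Cldn5, which seals the tight junctions of endothelium, had 35.9, 23.99, 12.3 and 20.97 CPM in knockout-labelled adipocytes, against 122, 71.8, 88.6 and 48.2 CPM in wild-type adipocytes. The groups did not overlap, and its difference was log2 -1.85 ± 0.34 SE, edgeR adjusted p = 0.00368. Cd93, a surface glycoprotein of vessels that binds the matrix protein made by Mmrn2, had 32.5, 24.8, 10.9 and 19.2 CPM in knockout-labelled adipocytes, against 107, 56.4, 66.4 and 37.5 CPM in wild-type adipocytes. It differed by log2 -1.63 ± 0.37 SE, edgeR adjusted p = 0.00831, and again no library crossed over. Mmrn2 itself had 23.02, 17.9, 8.24 and 14.3 CPM in knockout-labelled adipocytes, against 96.2, 48.3, 57.7 and 31.4 CPM in wild-type adipocytes. Its difference was log2 -1.90 ± 0.37 SE, edgeR adjusted p = 0.00469. The other genes of this group were Esam and Icam2, adhesion molecules, Emcn, a sialomucin of capillary and venous endothelium, and Clec14a, a lectin-like surface protein. Their log2 differences were -1.95 to -1.83, with Emcn the lowest at log2 -1.95 ± 0.32 SE, edgeR adjusted p = 0.00230.

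All 7 receptors and signalling genes fell, with a median log2 difference of -1.88. Kdr, the main signalling receptor for VEGF-A, had 62.7, 59.1, 32.7 and 57.5 CPM in knockout-labelled adipocytes, against 314, 143, 195 and 119 CPM in wild-type adipocytes. Its 8 values lay in separate ranges by label. Kdr, at chr5:75932827-75978458 on the minus strand, differed by log2 -1.89 ± 0.32 SE, edgeR adjusted p = 0.00242. Flt1, a receptor that also acts as a trap for VEGF-A, had 47.2, 45.3, 23.4 and 34.5 CPM in knockout-labelled adipocytes, against 211, 98.2, 155 and 79.8 CPM in wild-type adipocytes. It differed by log2 -1.88 ± 0.33 SE, edgeR adjusted p = 0.00285, close in size to Kdr.

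Tek, the angiopoietin receptor also called Tie2, had 16.5, 15.2, 7.96 and 12.3 CPM in knockout-labelled adipocytes, against 85.2, 38.9, 49.8 and 29.0 CPM in wild-type adipocytes. Tie1, its partner receptor, had 21.4, 20.8, 9.54 and 14.9 CPM in knockout-labelled adipocytes, against 112, 47.4, 70.9 and 32.3 CPM in wild-type adipocytes. Both were lower in each knockout-labelled library than in any wild-type library, by log2 -1.98 ± 0.34 SE, edgeR adjusted p = 0.00266 for Tek and log2 -2.00 ± 0.39 SE, edgeR adjusted p = 0.00442 for Tie1. Ptprb, the phosphatase that restrains Tek, had the smallest adjusted p among the 34 genes, with a difference of log2 -1.87 ± 0.30 SE, edgeR adjusted p = 0.00185. Eng, a co-receptor for bone morphogenetic proteins, and Robo4, a stabiliser of the endothelial barrier, differed by -1.73 ± 0.35 and -1.70 ± 0.37 (log2 ± SE; edgeR adjusted p = 0.00553 and 0.00728).

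The 5 transcription factors fell as well, with a median log2 difference of -1.58, and they include Sox7 and Tal1, the 2 smallest of the 29 called changes. Sox7, a SOX factor of developing and adult vessels, had 20.4, 19.4, 12.6 and 14.7 CPM in knockout-labelled adipocytes, against 47.9, 26.4, 50.6 and 24.6 CPM in wild-type adipocytes. The ranges were apart but closer than for Cdh5, and the difference was log2 -1.18 ± 0.27 SE, edgeR adjusted p = 0.00850. Tal1, a factor of blood and vessel development, differed by log2 -1.49 ± 0.31 SE, edgeR adjusted p = 0.00580. Erg, the ETS factor that maintains endothelial identity, differed by log2 -1.86 ± 0.33 SE, edgeR adjusted p = 0.00309, and Sox17, an arterial SOX factor, by log2 -1.84 ± 0.33 SE, edgeR adjusted p = 0.00302. Sox18 differed by log2 -1.58 ± 0.43 SE, edgeR adjusted p = 0.0185, and its call was lost without library KO-1152 (log2 -1.53, edgeR adjusted p = 0.0528).

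Of the 9 secreted proteins, enzymes, channels and other genes 8 fell, with a median over the 9 of -1.91. Vwf, the clotting protein stored in endothelial granules, had 9.48, 8.43, 4.42 and 6.08 CPM in knockout-labelled adipocytes, against 51.2, 29.6, 21.8 and 14.9 CPM in wild-type adipocytes. It had the largest change among the 34 genes, log2 -2.07 ± 0.38 SE, edgeR adjusted p = 0.00345. Plvap, which forms the diaphragms of fenestrae and caveolae, had 28.7, 16.7, 7.82 and 13.6 CPM in knockout-labelled adipocytes, against 120.0, 60.7, 51.9 and 30.9 CPM in wild-type adipocytes. Ushbp1, whose role in endothelium is not well known, had 25.4, 20.8, 9.84 and 16.4 CPM in knockout-labelled adipocytes, against 123, 59.2, 69.1 and 35.1 CPM in wild-type adipocytes. In both genes KO-1151 was the lowest library and the groups were apart, with differences of log2 -2.00 ± 0.46 SE, edgeR adjusted p = 0.00894 for Plvap and log2 -2.00 ± 0.39 SE, edgeR adjusted p = 0.00440 for Ushbp1.

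Aqp1, the water channel of capillary endothelium, was the most abundant of the 34 genes in adipocyte libraries per length of transcript, at 51.3 CPM per kilobase in knockout-labelled and 189.9 CPM per kilobase in wild-type adipocytes. It fell by 1.91 ± 0.34 on the log2 scale (± SE, edgeR adjusted p = 0.00326). Egfl7, a secreted protein of the vessel wall, had 25.9, 18.8, 9.65 and 17.4 CPM in knockout-labelled adipocytes, against 128, 52.5, 56.1 and 31.9 CPM in wild-type adipocytes. The ranges were apart, with WT-1135 far above the others, and the difference was log2 -1.93 ± 0.43 SE, edgeR adjusted p = 0.00764. In GENCODE M21 it overlaps Agpat2, a lipid synthesis gene on the other strand, over 64 exon bases, and Agpat2 was counted at 513 to 906 CPM in knockout-labelled and 375 to 516 CPM in wild-type adipocytes. Rasip1, a regulator of vessel lumen formation, Myct1 and She had log2 differences of -1.74, -1.76 and -1.90.

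Nos3, the endothelial nitric oxide synthase, stood apart from the other 29 genes. It had 63.6, 74.9, 83.8 and 57.4 CPM in knockout-labelled adipocytes, against 79.5, 76.2, 63.9 and 61.2 CPM in wild-type adipocytes. The groups overlapped throughout, with log2 -0.03 ± 0.13 SE, edgeR adjusted p = 0.898. Its standard error was the smallest of the 34 genes in this comparison, and its 8 values spanned 1.46-fold, against 9.30-fold for Cdh5. On GRCm38 Nos3 lies at chr5:24364810-24384474 on the plus strand, and in GENCODE M21 the opposite-strand genes Atg9b and Gm15587 share 7.12% and 25.2% of its exon bases. Whether reads were counted by strand is not given in the sources used here, so reads of Nos3 and of those genes cannot be told apart. Atg9b was counted at 0.975 to 2.55 CPM in knockout-labelled and 0.640 to 1.30 CPM in wild-type adipocytes, and Gm15587 is not used here.

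**Figure D1:**
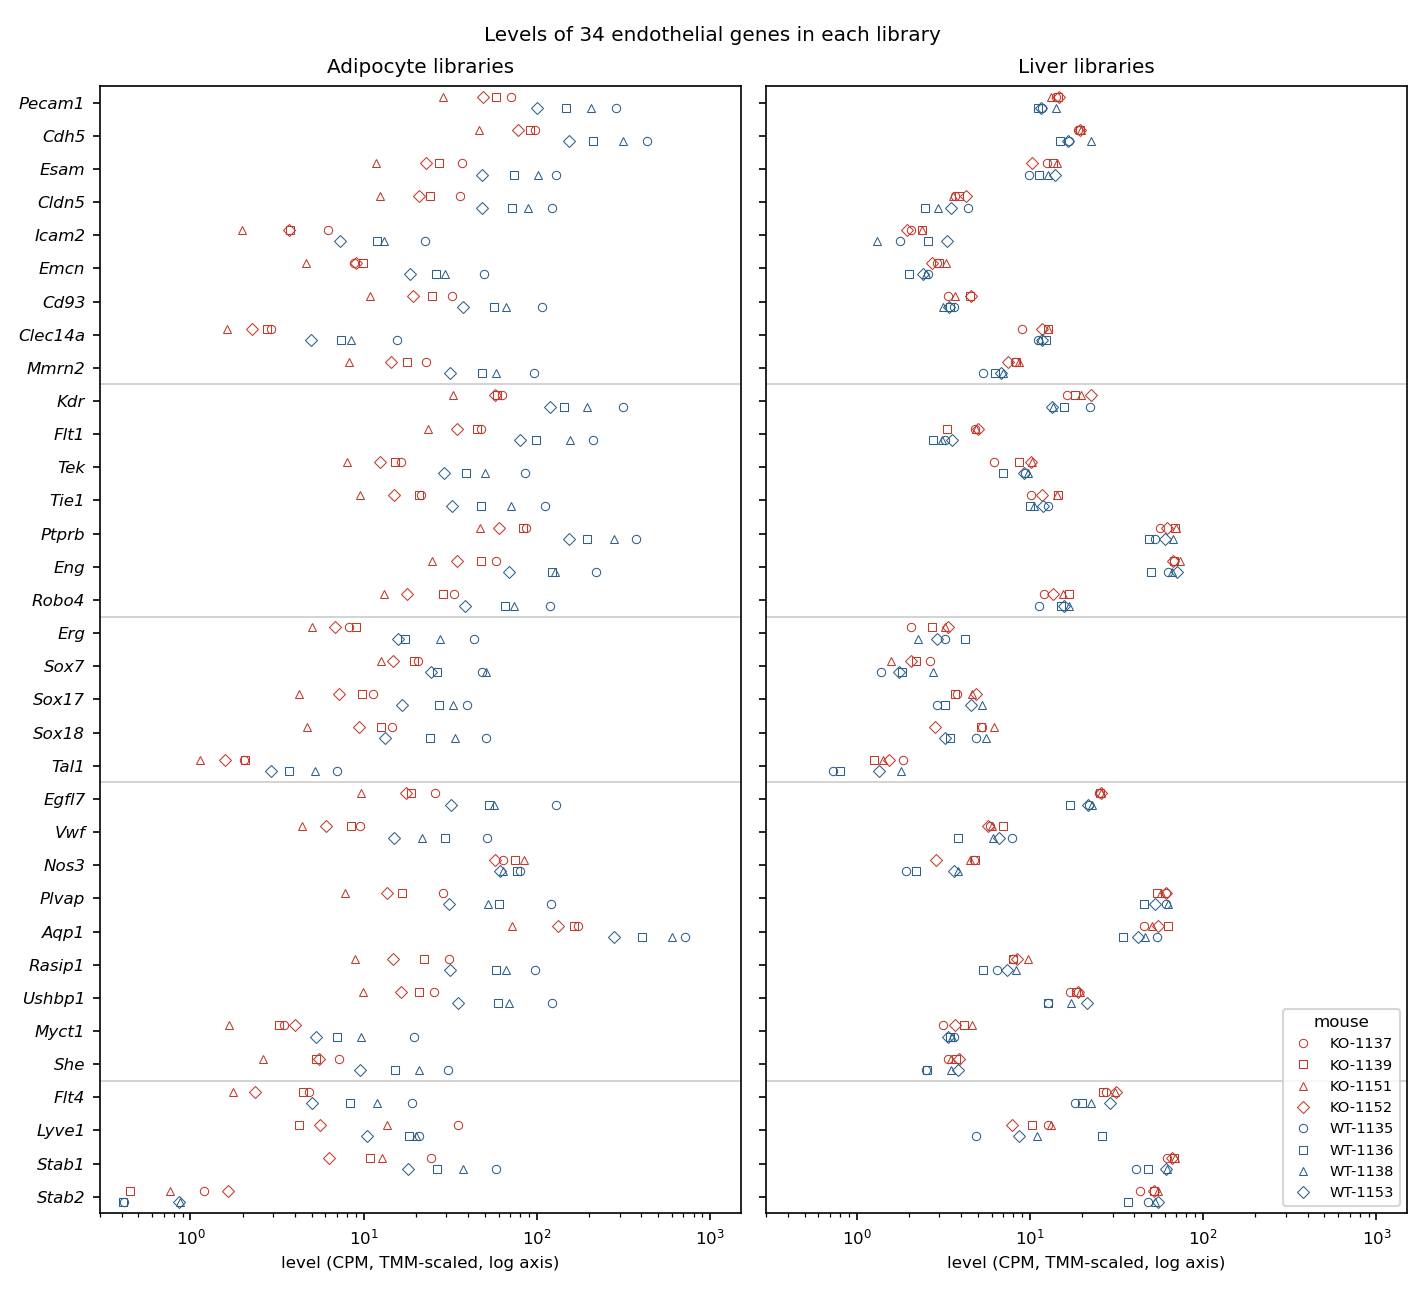
TMM-scaled CPM (log axis) of each of the 34 genes in the 8 adipocyte libraries (left panel) and the 8 liver libraries (right panel), with knockout-labelled mice in red above wild-type mice in blue, 1 symbol per mouse and lines between the role groups. In adipocytes the red points lie left of the blue ones for nearly every gene except Nos3, Lyve1 and Stab2, and in liver the colours overlap for most genes.

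**Figure D2:**
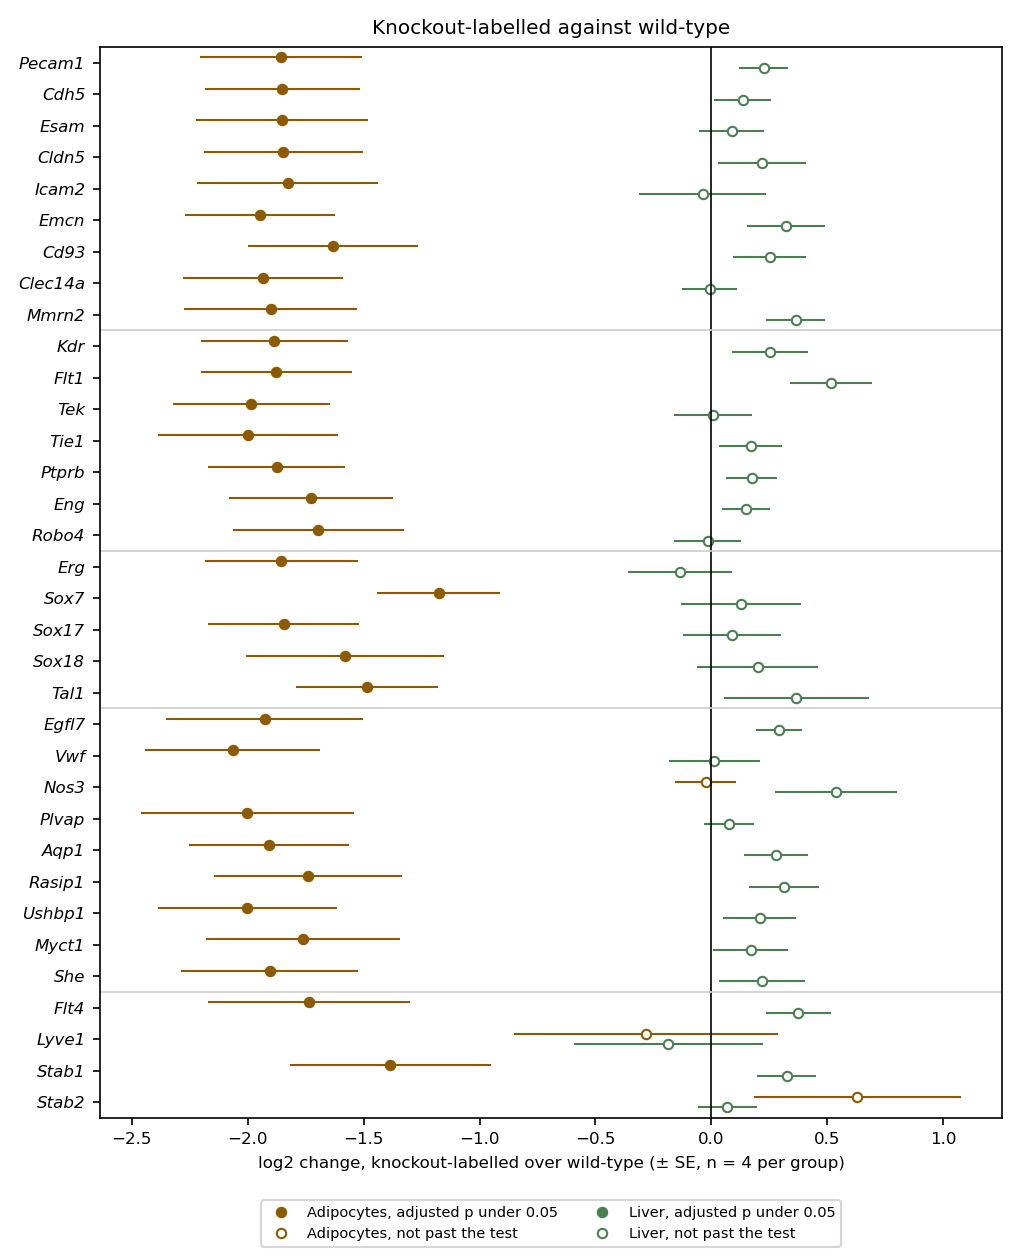
Log2 change, knockout-labelled over wild-type, with its standard error from edgeR for each gene in adipocytes (brown) and liver (green), 4 libraries per group, filled where the adjusted p was under 0.05. Of the 30 blood vascular genes 29 are filled in adipocytes, between -2.07 and -1.18, and no gene is filled in liver.

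Libraries within a group kept a common order over the blood vascular genes. KO-1137 was the highest knockout-labelled adipocyte library for 25 of the 30 genes and KO-1151 the lowest for 29. WT-1135 was the highest wild-type adipocyte library for 29 and WT-1153 the lowest for all 30. Summed over the 30 genes, the knockout-labelled adipocyte libraries held 1064, 946, 513 and 757 CPM and the wild-type libraries 4243, 2219, 2945 and 1538 CPM.

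KO-1151 and WT-1153 came from mice of 70 days, so the difference was also read within age. Among the mice of 70 days, 2 knockout-labelled and 1 wild-type, the knockout-labelled mean was lower for 29 of the 30 genes with a median log2 ratio of -1.40, and Nos3 was the exception. Among the mice of 76 days, 2 knockout-labelled and 3 wild-type, it was lower for all 30 with a median of -1.74. With too few mice at 70 days for a test there, these are values only, and an edgeR fit of the mice of 76 days alone called 29 of the 30 genes lower.

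Relative to Cdh5 the blood vascular genes of adipocyte libraries kept nearly fixed proportions. Across the 8 adipocyte libraries the highest and lowest ratio to Cdh5 differed by less than 2-fold for 26 of the other 29 genes, with a median of 1.43-fold, while their CPM differed by a median of 10.0-fold. Pecam1 was at 0.615 to 0.733 of Cdh5, Kdr at 0.621 to 0.777 and Flt1 at 0.443 to 0.520 over the 8 libraries. For 26 of the 29 genes the knockout-labelled and wild-type ratios overlapped. Only Sox7, Tal1 and Nos3 had ratios that were all higher in the knockout-labelled libraries, by 0.67, 0.35 and 1.76 on the log2 scale. The ratios share libraries and the Cdh5 count, so they are a description and were not tested.

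**Figure D3:**
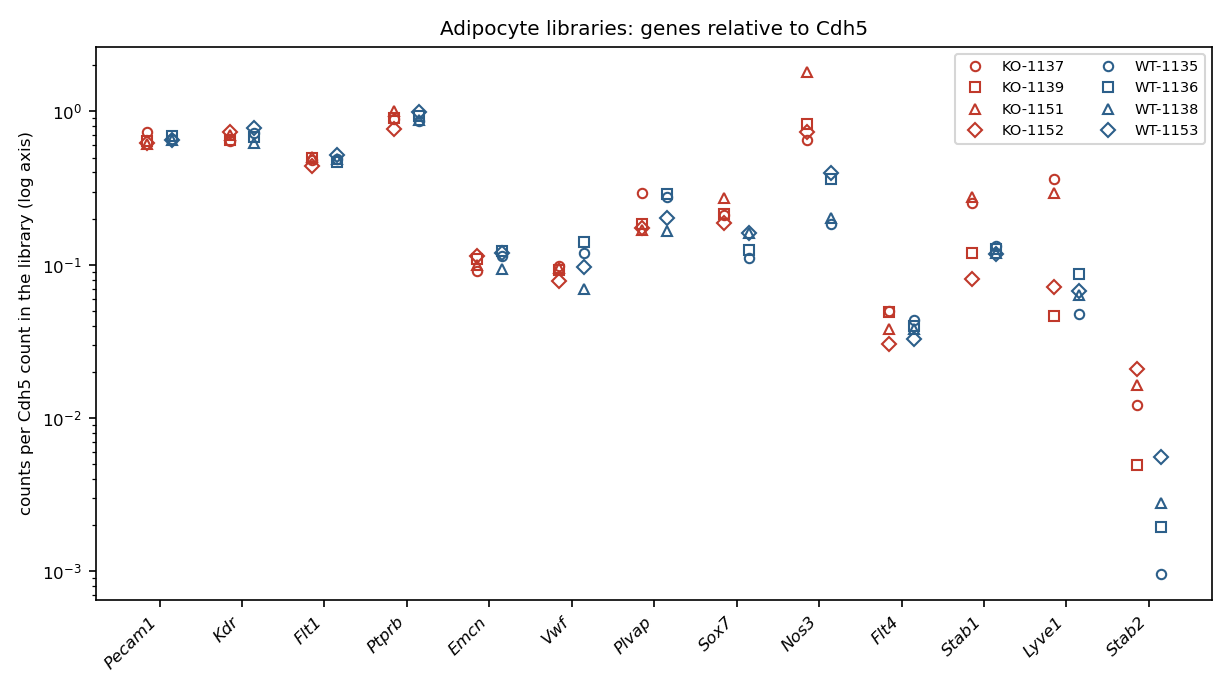
Counts per Cdh5 count (log axis) for 13 genes in each adipocyte library, knockout-labelled (red) left of wild-type (blue). Pecam1, Kdr and Flt1 hold nearly the same ratio in all 8 libraries, while Nos3, Lyve1 and Stab2 spread widely.

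The 4 lymphatic and sinusoidal genes did not follow a common pattern in adipocytes. Flt4, the receptor for VEGF-C in lymphatic vessels and in some blood capillaries, had 4.84, 4.47, 1.76 and 2.36 CPM in knockout-labelled adipocytes, against 18.9, 8.37, 11.98 and 5.03 CPM in wild-type adipocytes. All knockout-labelled values were below the wild-type values, narrowly for KO-1137 and WT-1153, and the difference was log2 -1.74 ± 0.44 SE, edgeR adjusted p = 0.0136. Stab1, a scavenger receptor of sinusoidal endothelium that is also made by macrophages, had 24.5, 10.9, 12.8 and 6.29 CPM in knockout-labelled adipocytes, against 57.6, 26.5, 37.4 and 17.9 CPM in wild-type adipocytes. The groups overlapped at KO-1137 and WT-1153. Its difference was log2 -1.38 ± 0.43 SE, edgeR adjusted p = 0.0329, and the call was lost in the mice of 76 days alone (adjusted p = 0.0940) and without any of KO-1139, KO-1151, KO-1152, WT-1135 or WT-1138, where adjusted p ran up to 0.0975.

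Lyve1, a hyaluronan receptor of lymphatic endothelium that some tissue macrophages also carry, had 35.03, 4.21, 13.6 and 5.59 CPM in knockout-labelled adipocytes, against 20.8, 18.4, 20.04 and 10.4 CPM in wild-type adipocytes. KO-1137 was above every wild-type library and KO-1139 and KO-1152 were below all of them. The difference was log2 -0.28 ± 0.57 SE, edgeR adjusted p = 0.731, and without KO-1137 it was -1.18 with an edgeR adjusted p of 0.0397. The macrophage genes listed beside them, 13 in the files, summed to 408, 75.4, 188 and 97.1 CPM in the knockout-labelled adipocyte libraries and 358, 300.2, 276 and 171 CPM in the wild-type libraries. KO-1137 and KO-1151 were thus the higher knockout-labelled libraries for Lyve1, Stab1 and the macrophage genes alike, while KO-1151 was the lowest for Cdh5. The part of macrophages in Lyve1 and Stab1 was not tested.

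Stab2, a hyaluronan scavenger receptor of liver sinusoids, was low in adipocytes, with 1.19, 0.445, 0.764 and 1.64 CPM in knockout-labelled adipocytes, against 0.412, 0.410, 0.874 and 0.862 CPM in wild-type adipocytes. These levels rest on 26 to 68 counts per library in knockout-labelled and 20 to 43 counts in wild-type adipocytes. KO-1137 and KO-1152 were the highest of the 8, and KO-1139 and KO-1151 lay within the wild-type range. The difference, log2 0.63 ± 0.45 SE, edgeR adjusted p = 0.296, was positive, against the direction of the other 33 genes, and did not pass the test.

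In the liver none of the 34 genes passed the test between knockout-labelled and wild-type mice, where edgeR called 0.0226% of 13288 genes, 3 higher and 0 lower, and 1146 genes had an unadjusted p under 0.05. DESeq2 called 54 genes higher and 50 lower, and none of the 34 was among them. The 30 blood vascular genes had log2 differences of -0.14 to 0.54 with a median of 0.19, against a median of all genes near 0, and 26 of the 30 were above 0. Their standard errors were 0.10 to 0.31. A call in liver needed a difference of many standard errors. Cd36, a gene outside the 34, was not called there at log2 -1.286 ± 0.2423 SE, edgeR adjusted p = 0.2515. Of the 30 genes, 3 had an unadjusted p under 0.05, as had Flt4 and Stab1 of the other 4, and 3 had groups that did not overlap, Egfl7, Mmrn2 and Emcn, where 4.6% of all tested genes had such groups.

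The smallest adjusted p in liver belonged to Egfl7, Flt1 and Mmrn2. Egfl7 had 24.96, 25.3, 25.6 and 25.7 CPM in knockout-labelled livers, against 21.9, 17.02, 22.7 and 21.6 CPM in wild-type livers. All 4 knockout-labelled values were above the wild-type values, with log2 0.29 ± 0.10 SE, edgeR adjusted p = 0.512. Flt1 had 4.82, 3.32, 4.87 and 5.02 CPM in knockout-labelled livers, against 3.24, 2.76, 3.10 and 3.53 CPM in wild-type livers. KO-1139 lay within the wild-type range and the other knockout-labelled livers above it, with log2 0.52 ± 0.18 SE, edgeR adjusted p = 0.512. Mmrn2, which encodes an endothelial matrix protein, had 8.23, 8.28, 8.69 and 7.52 CPM in knockout-labelled livers, against 5.36, 6.31, 6.96 and 6.83 CPM in wild-type livers. The groups were apart by a small margin, with log2 0.36 ± 0.13 SE, edgeR adjusted p = 0.512.

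Cdh5, Pecam1 and Kdr did not pass the test in liver, which does not show that their levels were equal. Cdh5 had 18.9, 19.3, 19.8 and 19.5 CPM in knockout-labelled livers, against 16.7, 14.98, 22.5 and 16.6 CPM in wild-type livers, with log2 0.14 ± 0.12 SE, edgeR adjusted p = 0.782. Pecam1 had 14.1, 14.5, 13.3 and 14.8 CPM in knockout-labelled livers, against 11.7, 11.1, 14.2 and 11.6 CPM in wild-type livers, with log2 0.23 ± 0.11 SE, edgeR adjusted p = 0.594. Kdr had 16.3, 18.2, 19.8 and 22.7 CPM in knockout-labelled livers, against 22.3, 15.8, 13.5 and 13.3 CPM in wild-type livers, and its groups overlapped, with log2 0.25 ± 0.16 SE, edgeR adjusted p = 0.696.

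The other genes followed by library had overlapping groups in liver. Cldn5 had 3.69, 3.90, 3.60 and 4.27 CPM in knockout-labelled livers, against 4.39, 2.48, 2.96 and 3.51 CPM in wild-type livers, with log2 0.22 ± 0.19 SE, edgeR adjusted p = 0.777. Cd93 had 3.37, 4.52, 3.70 and 4.58 CPM in knockout-labelled livers, against 3.62, 3.44, 3.17 and 3.40 CPM in wild-type livers, with log2 0.25 ± 0.16 SE, edgeR adjusted p = 0.690. Tek had 6.22, 8.66, 10.3 and 10.2 CPM in knockout-labelled livers, against 9.33, 7.03, 9.68 and 9.28 CPM in wild-type livers, with log2 0.01 ± 0.17 SE, edgeR adjusted p = 0.993. KO-1137 and WT-1136 were the lowest of the 8 for Tek. Tie1 had 10.2, 14.5, 14.3 and 11.7 CPM in knockout-labelled livers, against 12.8, 9.95, 10.6 and 11.9 CPM in wild-type livers, with log2 0.17 ± 0.13 SE, edgeR adjusted p = 0.753. Vwf had 5.90, 6.98, 6.05 and 5.72 CPM in knockout-labelled livers, against 7.86, 3.83, 6.10 and 6.65 CPM in wild-type livers, with log2 0.01 ± 0.20 SE, edgeR adjusted p = 0.990. Ushbp1 had 16.97, 18.4, 19.5 and 18.9 CPM in knockout-labelled livers, against 12.7, 12.7, 17.3 and 21.2 CPM in wild-type livers, with log2 0.21 ± 0.16 SE, edgeR adjusted p = 0.738. In Ushbp1 only WT-1153 reached above the knockout-labelled range.

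The receptor and scavenger genes of sinusoids were abundant in liver. Stab2 had 43.1, 52.1, 54.97 and 51.9 CPM in knockout-labelled livers, against 48.2, 36.95, 52.97 and 54.9 CPM in wild-type livers, with log2 0.07 ± 0.13 SE, edgeR adjusted p = 0.901. Stab1 had 61.7, 67.5, 68.96 and 66.3 CPM in knockout-labelled livers, against 41.0, 47.8, 61.8 and 60.9 CPM in wild-type livers, and 3 of the 4 knockout-labelled livers were above every wild-type liver, with log2 0.32 ± 0.13 SE, edgeR adjusted p = 0.536. Flt4 had 27.3, 26.3, 31.1 and 31.2 CPM in knockout-labelled livers, against 18.1, 19.9, 22.4 and 29.04 CPM in wild-type livers, with log2 0.37 ± 0.14 SE, edgeR adjusted p = 0.515. Lyve1 had 12.8, 10.2, 13.2 and 7.85 CPM in knockout-labelled livers, against 4.86, 26.0, 10.95 and 8.67 CPM in wild-type livers. It was the most variable of the 34 genes in wild-type livers, with WT-1136 at the top and WT-1135 at the bottom, and its difference was log2 -0.19 ± 0.41 SE, edgeR adjusted p = 0.918.

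The genotype difference in adipocytes was compared with that in liver by an interaction term over all 16 libraries. The call covered 29 of the 30 blood vascular genes, all in the negative direction (a lower knockout-labelled level in adipocytes relative to liver), where 19.1% of 14898 genes were called and 8.73% in that direction. The median interaction of the 30 genes was -2.00 on the log2 scale. Flt1 had log2 -2.37 ± 0.40 SE, edgeR adjusted p = 0.00105, Emcn log2 -2.25 ± 0.38 SE, edgeR adjusted p = 0.00105 and Pecam1 log2 -2.06 ± 0.39 SE, edgeR adjusted p = 0.00220. Nos3 was the blood vascular gene without a call, at log2 -0.52 ± 0.28 SE, edgeR adjusted p = 0.213. Flt4 and Stab1 were called too, at -2.08 and -1.68, and Lyve1 and Stab2 were not, at -0.06 and 0.58. With mouse as a replicate block, 28 of the 30 were called and Icam2 was not (log2 -1.81, edgeR adjusted p = 0.0529). Icam2 and Stab1 also missed the threshold without WT-1135 in adipocytes (edgeR adjusted p = 0.0570 and 0.0558). Sox7 and Sox18 lay close to it, with an edgeR adjusted p up to 0.0628 and 0.0786 when a library was left out. Sox7 missed it without KO-1151, KO-1152, WT-1135 or WT-1138 in adipocytes or without KO-1137, WT-1135, WT-1136 or WT-1153 in liver. Sox18 missed it without KO-1151, KO-1152, WT-1135 or WT-1138 in adipocytes or without KO-1137, KO-1139, KO-1151, WT-1136 or WT-1153 in liver. In the mice of 76 days alone 21 of the 30 were called.

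Wild-type adipocyte libraries held more blood vascular RNA than wild-type livers in 28 of the 30 genes, and none was lower. Between these tissues 77.6% of 14366 genes were called, 40.5% higher in adipocytes and 37.2% lower. The median log2 difference of the 30 genes was 2.84, adipocyte over liver, against 0.06 over all genes, and for 27 of them the groups did not overlap, as for 73.4% of all tested genes. The adipocytes were isolated from fat with collagenase, while livers were extracted whole. The labels also state a lower floor of RNA integrity for adipose than for liver RNA and a different extraction for each tissue. The part of isolation, RNA integrity and extraction in these differences was not tested.

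The largest positive differences belonged to Flt1, Cldn5, Nos3, Cd93 and Sox7. In wild-type livers Flt1 was at 2.76 to 3.53 CPM, Cldn5 at 2.48 to 4.39 CPM and Cd93 at 3.17 to 3.62 CPM, far below the adipocyte values above. Flt1 differed by log2 5.42 ± 0.32 SE, edgeR adjusted p = 5.64e-08, Cldn5 by log2 4.62 ± 0.30 SE, edgeR adjusted p = 1.15e-07 and Cd93 by log2 4.29 ± 0.30 SE, edgeR adjusted p = 2.01e-07. Nos3 had 4.78, 4.79, 4.54 and 2.88 CPM in knockout-labelled livers, against 1.93, 2.20, 3.86 and 3.64 CPM in wild-type livers. With 61.2 to 79.5 CPM in wild-type adipocytes, it differed between the tissues by log2 4.57 ± 0.22 SE, edgeR adjusted p = 9.92e-09. Sox7 had 2.65, 2.19, 1.58 and 2.06 CPM in knockout-labelled livers, against 1.39, 1.84, 2.76 and 1.75 CPM in wild-type livers. Wild-type adipocytes were at 24.6 to 50.6 CPM, with log2 4.26 ± 0.31 SE, edgeR adjusted p = 2.91e-07. The standard markers followed, at log2 3.97 ± 0.32 SE, edgeR adjusted p = 6.06e-07 for Cdh5, log2 3.92 ± 0.30 SE, edgeR adjusted p = 4.47e-07 for Pecam1 and log2 3.57 ± 0.32 SE, edgeR adjusted p = 1.44e-06 for Kdr.

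Plvap and Clec14a were the blood vascular genes that did not differ by the test. Plvap had 60.8, 53.9, 56.96 and 61.2 CPM in knockout-labelled livers, against 60.7, 45.5, 62.6 and 52.7 CPM in wild-type livers. The wild-type adipocyte values of 30.9 to 120.0 CPM enclosed the wild-type liver values, and the difference was log2 0.25 ± 0.33 SE, edgeR adjusted p = 0.507. Clec14a was at 4.93 to 15.5 CPM in wild-type adipocytes and 11.1 to 12.3 CPM in wild-type livers, with log2 -0.37 ± 0.29 SE, edgeR adjusted p = 0.260. Without WT-1135 in adipocytes Clec14a was lower in adipocytes than in liver (log2 -0.79, edgeR adjusted p = 0.00221). With library totals in place of TMM scaling, which moves the median of all genes to 0.71 on the log2 scale, Plvap was higher in adipocytes (log2 0.93, edgeR adjusted p = 0.0344).

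Among the sinusoidal and lymphatic genes Stab2 was 0.0131 of its liver level in wild-type adipocytes (log2 -6.26 ± 0.27 SE, edgeR adjusted p = 3.89e-09), with 0.410 to 0.874 CPM in adipocytes and 37.0 to 54.9 CPM in liver. Flt4 was lower in adipocytes, at log2 -1.02 ± 0.34 SE, edgeR adjusted p = 0.0167, and that call was lost without WT-1153 in liver (adjusted p = 0.0522) and with library totals (adjusted p = 0.393). Stab1 and Lyve1 did not pass, at -0.61 ± 0.30 and 0.47 ± 0.42 on the log2 scale (edgeR adjusted p = 0.0889 and 0.326). Stab1 passed without WT-1135 in adipocytes (log2 -0.99, edgeR adjusted p = 0.00293) and with DESeq2 (-0.64, adjusted p = 0.0417). Lyve1 passed without WT-1136 in liver (log2 1.07, edgeR adjusted p = 0.00845) and with library totals (1.13, adjusted p = 0.0297).

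Per kilobase of exon, the order of the genes also differed between the tissues. In wild-type adipocytes Aqp1, Cdh5, Cldn5, Eng and Plvap led, with means of 189.9, 66.0, 58.3, 33.2 and 33.2 CPM per kilobase (n = 4). In wild-type livers the leading genes were Plvap, Aqp1, Eng, Egfl7, Stab2 and Stab1, with means of 27.9, 16.9, 15.4, 5.80, 5.51 and 5.14 CPM per kilobase. Cdh5 ranked 9 in wild-type liver, at 4.21 CPM per kilobase.

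In knockout-labelled mice the median tissue difference of the blood vascular genes was smaller than in wild-type mice, although Clec14a and Plvap differed more. Of the 30 blood vascular genes 19 were higher in adipocytes, 3 were lower and 8 were not called, with a median log2 difference of 0.94, where 79.8% of 14229 genes were called, 40.4% higher and 39.3% lower. The genes lower in adipocytes were Clec14a at log2 -2.27 ± 0.20 SE, edgeR adjusted p = 1.43e-06, Plvap at log2 -1.81 ± 0.30 SE, edgeR adjusted p = 0.000217 and Eng at log2 -0.76 ± 0.21 SE, edgeR adjusted p = 0.00627. Eng shares 61 exon bases with the opposite-strand gene Fpgs. Fpgs was counted at 119.4 to 180.3 CPM in knockout-labelled livers and 3.408 to 4.775 CPM in knockout-labelled adipocytes, and its part in the Eng counts was not tested. Nos3 had the largest difference, log2 4.04 ± 0.19 SE, edgeR adjusted p = 8.21e-09, followed by Flt1 with log2 3.05 ± 0.23 SE, edgeR adjusted p = 4.10e-07. Flt4, Stab1 and Stab2 were all lower in adipocytes, at -3.10, -2.29 and -5.68, and Lyve1 had log2 0.39 ± 0.56 SE, edgeR adjusted p = 0.532. These adipocyte libraries also enter the comparison of genotypes, so the lower median is not a separate result. With mouse as a replicate block 16 were higher and 4 lower, and the calls that differed were Icam2 (log2 0.72, edgeR adjusted p = 0.0547), Tek (log2 0.51, adjusted p = 0.0972) and Robo4 (log2 0.58, adjusted p = 0.0508), no longer called, and Egfl7, called lower (log2 -0.59, adjusted p = 0.0282). Leaving out single libraries also moved calls here. Tek was no longer called when any library other than KO-1151 in adipocytes was left out. Robo4 was not called without KO-1137 or KO-1139 in adipocytes or KO-1137, KO-1151 or KO-1152 in liver, and Icam2 without KO-1137 in either tissue or KO-1152 in liver. Egfl7 was also called lower without KO-1137 in adipocytes, with DESeq2 and with age as a covariate, and She and Tie1 higher without KO-1151 in adipocytes. With library totals Eng was not called (log2 -0.33, edgeR adjusted p = 0.190), and Tie1, Ptprb, Vwf and She were called higher. Tek was also not called with halved counts or with age as a covariate, and Tie1, Ptprb and She were called higher in the mice of 76 days alone.

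**Figure D4:**
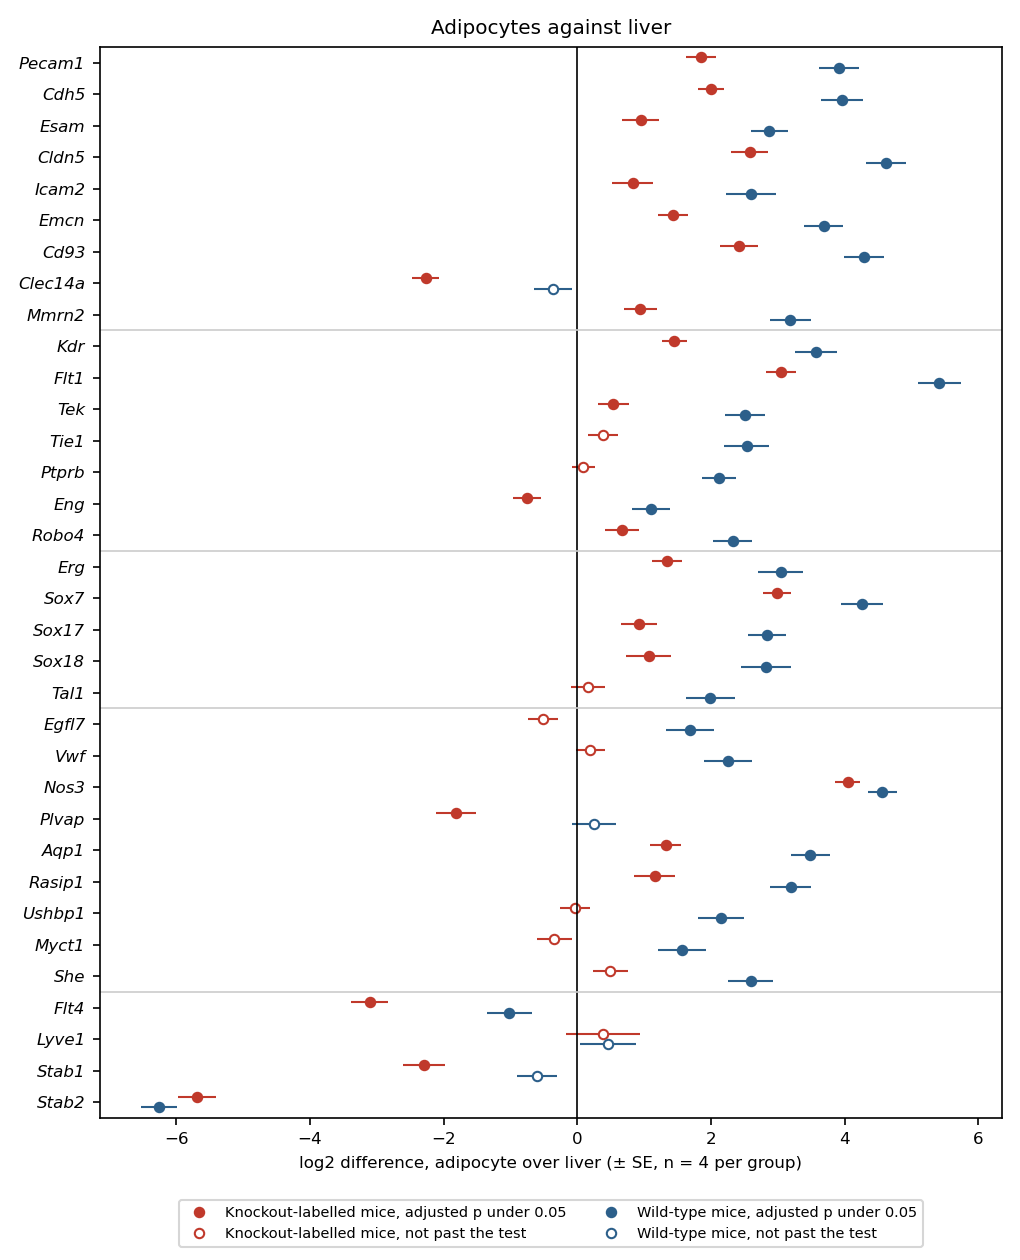
Log2 difference, adipocyte over liver, with its standard error from edgeR for each gene in knockout-labelled mice (red) and wild-type mice (blue), 4 libraries per group, filled where the adjusted p was under 0.05. Blue points lie right of red ones for every gene except Stab2, Nos3 has the highest red point, and Stab2 lies farthest to the left in both.

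The other genes of these pathways, from lists that hold none of the 34 genes, were read in adipocytes in the same fit. Over all genes tested in it 18% were higher and 17.1% lower. Of 20 tested co-receptors and Notch pathway genes 14 were lower in knockout-labelled adipocytes and 2 higher, with a median log2 difference of -1.49. Without KO-1137, KO-1139, WT-1136, WT-1138 or WT-1153 1 was higher, and with library totals or in the mice of 76 days alone 0 were. The adhesion receptor Eltd1 measured 22.2 to 44.1 CPM in knockout-labelled and 75.9 to 174 CPM in wild-type adipocytes (log2 -1.74 ± 0.28 SE, edgeR adjusted p = 0.00216), and S1pr1, the receptor for sphingosine 1-phosphate on vessels, 19.4 to 45.4 CPM in knockout-labelled and 70.1 to 183 CPM in wild-type adipocytes (log2 -1.84 ± 0.32 SE, edgeR adjusted p = 0.00281). Of 15 endothelial transcription factors 11 were lower and 0 higher (median -1.59), led by the ETS factor Fli1 (log2 -1.92 ± 0.29 SE, edgeR adjusted p = 0.00159) and the homeobox factor Meox2 (log2 -2.10 ± 0.34 SE, edgeR adjusted p = 0.00214). Of 13 genes of arteries, veins and adhesion 11 were lower and 0 higher (median -1.60, edgeR). Thbd, the anticoagulant receptor thrombomodulin, had 13.9 to 29.6 CPM in knockout-labelled and 77.6 to 146 CPM in wild-type adipocytes (log2 -2.62 ± 0.27 SE, edgeR adjusted p = 0.000219), and Vcam1, an adhesion molecule for leukocytes, changed by log2 -1.24 ± 0.17 SE, edgeR adjusted p = 0.000938. In the mice of 76 days alone 7 of these 13 were called lower, and without KO-1137 or WT-1153 1 transcription factor was called higher.

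Of 11 tested ligands 3 were lower and 1 higher (median -0.35), a share close to the 35.2% of all genes that were called. Cxcl12, a chemokine, fell (log2 -1.31 ± 0.32 SE, edgeR adjusted p = 0.0122), and Slit2, a guidance ligand of Robo receptors, rose (log2 1.55 ± 0.47 SE, edgeR adjusted p = 0.0296). Slit2 was not called in the mice of 76 days alone or without KO-1151, WT-1135 or WT-1138 (edgeR adjusted p up to 0.118), and 1 ligand was called lower without KO-1139, KO-1151, KO-1152, WT-1135 or WT-1138. Without KO-1137, 2 ligands were called higher, and with library totals 6 were lower. Genes of lipid transport across capillaries, several of which adipocytes also make, split with 4 of 10 higher and 3 lower (median 0.16), and 2 were higher in the mice of 76 days alone. Fabp5, a fatty acid binding protein, had 343 to 597 CPM in knockout-labelled and 139.9 to 189 CPM in wild-type adipocytes (log2 1.39 ± 0.19 SE, edgeR adjusted p = 0.000877), and Slc27a4, a fatty acid transporter, rose (log2 0.64 ± 0.11 SE, edgeR adjusted p = 0.00247). Gpihbp1, which carries lipoprotein lipase across capillary endothelium and is made by endothelial cells, fell by 1.63 ± 0.31 (log2 ± SE, edgeR adjusted p = 0.00417). It was named after its value was seen.

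Where 17.1% of all tested genes were lower, 1 of 8 tested genes of liver sinusoids was lower in knockout-labelled adipocytes (median -0.48). This was Bmp6, a growth factor made by sinusoidal endothelium (log2 -2.08 ± 0.41 SE, edgeR adjusted p = 0.00458), followed by the transcription factor Maf (log2 -0.27 ± 0.13 SE, edgeR adjusted p = 0.129). Unlike most of the listed sinusoidal genes, Bmp6 was higher in wild-type adipocytes than in wild-type livers (log2 3.17 ± 0.42 SE, edgeR adjusted p = 4.22e-05). Of 7 tested lymphatic genes 1 was lower (median -1.09), the vessel protein Mmrn1 (log2 -1.47 ± 0.41 SE, edgeR adjusted p = 0.0211), followed by Fgl2 (log2 -1.26 ± 0.48 SE, edgeR adjusted p = 0.0644). Mmrn1 lost its call without KO-1139, KO-1151 or WT-1135 and in the mice of 76 days alone, as well as with all 16 libraries in the fit (edgeR adjusted p = 0.0518). Fgl2 was called without KO-1137 or WT-1153, with library totals (edgeR adjusted p = 0.0490), with age as a covariate (0.0411) and with all 16 libraries (0.0252). Maf was called with library totals (edgeR adjusted p = 0.0380). Without KO-1137, 3 sinusoidal and 3 lymphatic genes were called lower, and 2 lymphatic genes without WT-1153. Sinusoidal genes called lower numbered 4 with all 16 libraries and 2 with library totals. Lymphatic genes called lower numbered 2 with library totals, age or all 16 libraries and 0 with halved counts.

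Markers of other cells that a fat cell preparation can hold were read beside the endothelial genes, in the fit where 17.1% of all tested genes were lower. Mural cell genes, of pericytes and smooth muscle, were lower for 9 of 11 (median -1.50), led by Abcc9 (log2 -2.27 ± 0.21 SE, edgeR adjusted p = 0.000139) and Acta2 (log2 -1.59 ± 0.35 SE, edgeR adjusted p = 0.00722), with summed levels of 391 to 503 CPM in knockout-labelled and 493 to 631 CPM in wild-type adipocytes. Without KO-1151, KO-1152 or WT-1135, 5 were called, and Acta2 lost its call in the mice of 76 days alone (adjusted p = 0.0525). Fibroblast and progenitor genes were lower for 8 of 12 (median -1.48), led by the matrix protein gene Lum (log2 -1.47 ± 0.20 SE, edgeR adjusted p = 0.000993) and the surface antigen gene Ly6a (log2 -1.77 ± 0.37 SE, edgeR adjusted p = 0.00573), with sums of 579 to 1073 CPM in knockout-labelled and 979 to 1335 CPM in wild-type adipocytes. In the mice of 76 days alone 2 of them were called, and 5 and 4 without KO-1139 and KO-1152.

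The shares of macrophage and lymphocyte genes called lower in the main fit lay near or below the 17.1% of all tested genes. Of 11 tested macrophage genes 1 was lower (median -0.51), Ptprc (log2 -1.04 ± 0.36 SE, edgeR adjusted p = 0.0476), followed by Lyz2 (log2 -0.51 ± 0.39 SE, edgeR adjusted p = 0.334), and the Kupffer cell gene Clec4f had no counts in any adipocyte library. Ptprc lost its call in the mice of 76 days alone, with age as a covariate and without any of KO-1139, KO-1151, KO-1152, WT-1135, WT-1136 or WT-1153. Without KO-1137, 9 of the 11 were called lower, Lyz2 among them (log2 -1.07, edgeR adjusted p = 0.00956). Of 9 lymphocyte genes 2 were lower (median -1.05), Cd4 (log2 -0.91 ± 0.27 SE, edgeR adjusted p = 0.0253) and Lck (log2 -1.42 ± 0.42 SE, edgeR adjusted p = 0.0274), with sums of 5.90 to 18.8 CPM in knockout-labelled and 11.4 to 27.3 CPM in wild-type adipocytes. Cd4 lost its call without KO-1139, KO-1151, WT-1135, WT-1136 or WT-1153, Lck without KO-1139, KO-1151, KO-1152, WT-1135 or WT-1136, and both in the mice of 76 days alone. Of the 9, 8 were lower without KO-1137, 6 without WT-1138 and 1 without KO-1152 or WT-1153. DESeq2 and library totals gave 4 each, and all 16 libraries in the fit gave 6.

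None of 3 tested platelet genes was called by edgeR (median -0.53), with Itga2b (log2 -0.53 ± 0.19 SE, edgeR adjusted p = 0.0535) and Ppbp (log2 -0.82 ± 0.44 SE, edgeR adjusted p = 0.173) the nearest. Without KO-1137 or WT-1138, 1 was called, and Itga2b was called lower with DESeq2 (adjusted p = 0.0336), with library totals (edgeR adjusted p = 0.0232) and with halved counts (edgeR adjusted p = 0.0477). The only tested red cell gene, Alas2, was lower (log2 -1.04 ± 0.34 SE, edgeR adjusted p = 0.0385), a call lost without KO-1139, KO-1151, KO-1152, WT-1135 or WT-1136 and in the mice of 76 days alone. The alpha-globin genes Hba-a1 and Hba-a2 had no counts in any library of either tissue, so their zeros are not particular to adipocytes. Adipocyte genes had 1 of 9 higher and 0 lower (median 0.24), led by Retn, the gene of resistin (log2 1.27 ± 0.14 SE, edgeR adjusted p = 0.000345), and Adipoq, the gene of adiponectin (log2 0.41 ± 0.15 SE, edgeR adjusted p = 0.0548), and 2 were higher without KO-1152 or WT-1136. DESeq2 called 3 higher, Adipoq among them (log2 0.40, adjusted p = 0.00911), and 1 lower, and library totals gave 1 lower. Their sums were 28920 to 32770 CPM in knockout-labelled and 23100 to 33640 CPM in wild-type adipocytes. Of 5 tested hepatocyte genes Alb was lower (log2 -1.88 ± 0.28 SE, edgeR adjusted p = 0.00147) and Serpina1a higher (log2 1.47 ± 0.34 SE, edgeR adjusted p = 0.00877), with sums of 19.3 to 30.4 CPM in knockout-labelled and 38.3 to 105 CPM in wild-type adipocytes (median -0.22). The only tested bile duct gene, Sox9, was higher (log2 0.75 ± 0.22 SE, edgeR adjusted p = 0.0242), a call lost without KO-1151 or KO-1152, with library totals and in the mice of 76 days alone. With all 16 libraries in the fit 3 bile duct genes were called lower, and 1 with no low-count filter. The part of these cells in the endothelial differences was not tested.

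**Figure D5:**
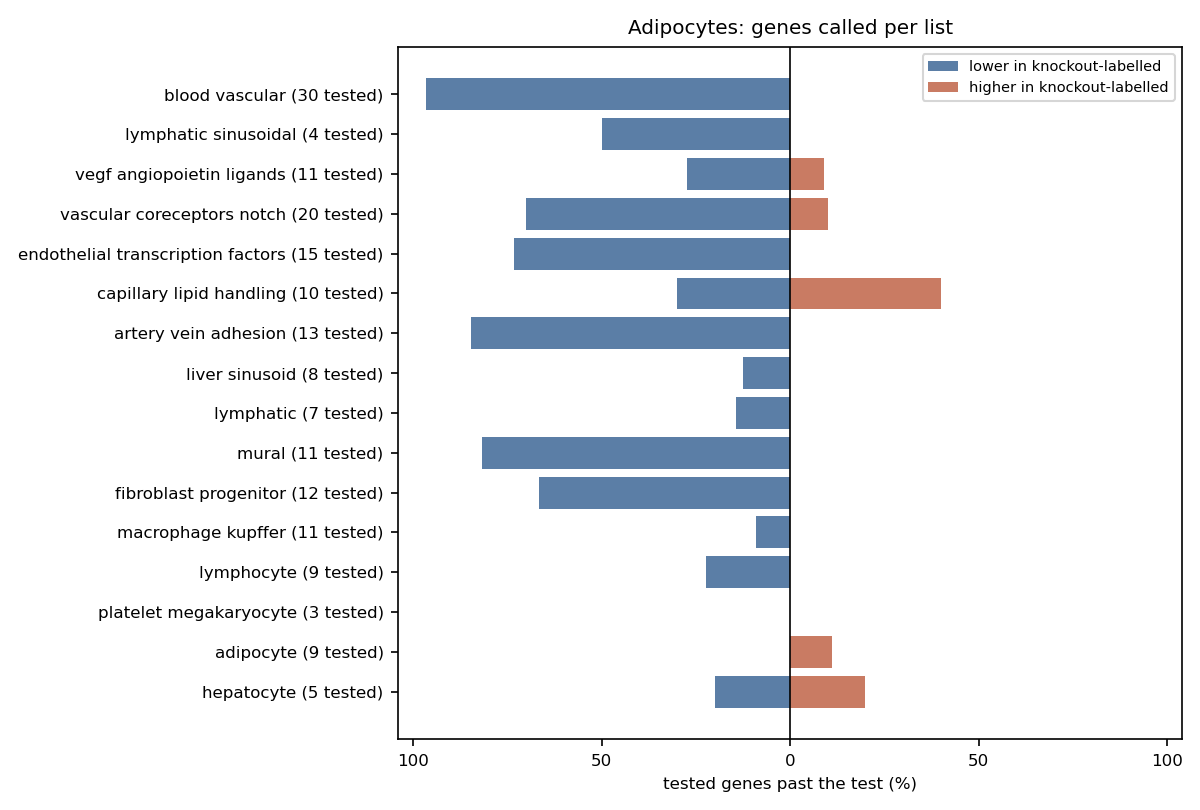
Percent of the tested genes of each list that were called lower (bars to the left) or higher (bars to the right) in knockout-labelled than in wild-type adipocytes, for lists with at least 3 tested genes. The blood vascular genes have the longest bar to the left, and the capillary lipid list extends to both sides.

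The same lists were read between the tissues of wild-type mice, where 40.5% of all genes were higher in adipocytes and 37.2% lower. Of 20 co-receptors and Notch genes 17 were higher in adipocytes and 0 lower (median 2.996), led by the Notch ligand Jag1 (log2 3.63 ± 0.15 SE, edgeR adjusted p = 2.80e-09) and Eltd1 (log2 4.03 ± 0.25 SE, edgeR adjusted p = 8.15e-08). Of 15 transcription factors 14 were higher and 1 lower (median 2.64), led by Klf4 (log2 8.14 ± 0.25 SE, edgeR adjusted p = 3.19e-10) and by Meox2, at 14.7 to 43.8 CPM in wild-type adipocytes and at most 0.0516 CPM in wild-type livers. Of 10 lipid handling genes 9 were higher and 0 lower (median 4.94), led by the caveolar genes Cav2 (log2 7.46 ± 0.18 SE, edgeR adjusted p = 1.07e-10) and Cav1 (log2 9.01 ± 0.34 SE, edgeR adjusted p = 1.25e-09). Of 13 genes of arteries, veins and adhesion 9 were higher and 3 lower (median 2.71), led by Thbd (log2 5.58 ± 0.29 SE, edgeR adjusted p = 1.82e-08) and the semaphorin Sema3g, at 24.1 to 93.6 CPM in wild-type adipocytes and at most 0.344 CPM in wild-type livers. With library totals 1 of these 13 was lower.

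Ligands were higher in adipocytes for 9 of 12 and lower for 2 (median 2.56). Slit3 was at 92.2 to 123 CPM in wild-type adipocytes and at most 0.207 CPM in wild-type livers, and Gdf2, the gene of the circulating BMP9, at most 0.0401 CPM in wild-type adipocytes and 14.7 to 23.3 CPM in wild-type livers. The genes of liver sinusoids ran the other way, with 2 of 14 higher and 11 lower in adipocytes (median -3.17), led by Oit3 (log2 -6.58 ± 0.26 SE, edgeR adjusted p = 2.28e-09) and by the transcription factor Gata4, at most 0.0634 CPM in wild-type adipocytes and 13.1 to 18.1 CPM in wild-type livers. Of 7 lymphatic genes 2 were higher and 3 lower (median 0.24), led by Prox1 (log2 -7.65 ± 0.28 SE, edgeR adjusted p = 1.09e-09), which hepatocytes also express, and Reln (log2 -5.35 ± 0.36 SE, edgeR adjusted p = 1.39e-07). Between the genotype labels in liver edgeR called none of the genes of these 16 lists, and DESeq2 called 1 capillary lipid gene lower.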

How the data were processed

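Gene counts per library were deposited by the authors as whole numbers, without normalization, for 23420 genes in 16 libraries. Per the labels' protocols, poly-A RNA was sequenced from collagenase-isolated subcutaneous adipocytes and from liver. Reads were handled with bcl2fastq 2.17, STAR 2.5.2b and featureCounts 1.5.0 on mm10, per the submitters' processing notes. Which annotation was counted, whether by strand, and how multiply mapping reads were treated is not given in the sources used here. Of the deposited counts from 1 to 20, 77.9% were even, so halved counts were tried as an alternative.

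The counts were tested with edgeR 4.0.16 (quasi-likelihood, TMM scaling, filterByExpr) in R 4.3.3, with Benjamini-Hochberg adjustment over all tested genes and a threshold of 0.05. Comparisons were genotype label within each tissue, tissue within each genotype label, and the interaction. Displayed CPM use 1 TMM scaling over the 16 libraries, while each fit uses its own. Libraries totalled 28560887 to 53716669 counts. Floors cover counting error only, while the standard errors come from the fits and include the spread between replicates. Replicates of a group differed by more than counting error (lowest chi-square per degree of freedom 32.1).

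Per the labels, a number marks 1 mouse in both tissues, so mouse was used as a block in an alternative fit of the tissue and interaction comparisons. The correlation of same-mouse deviations was -0.0842 to 0.14. Other alternatives were DESeq2 1.42.0, library totals, no filter, halved counts, age, mice of 76 days only, all libraries in 1 fit, and leaving out each library. Exon lengths, positions and overlaps come from GENCODE M21 and promoters from RefSeq. Exons of 7 members overlap those of another gene: Egfl7, Eng, Nos3, Rasip1, Sox17, Stab1 and Stab2.

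Values in every library are given for 19 members and ranges or tests for the other 15. For the other lists, the 2 genes with the smallest adjusted p are named in adipocytes between genotype labels, and for 7 pathway lists between tissues in wild-type mice. The members and lists were chosen with earlier results of these data known. The method was tested on simulated data in which all genes shared the same replicate spread. Fewer genes changed there than were called in adipocytes, so that test does not vouch for these calls. Older symbols such as Eltd1 are given as in the files.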

Additional observations from a re-analysis of the deposited data

Results flagged for a closer look

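The genotype difference of 31 of the 34 genes differed between adipocytes and liver by the interaction test (edgeR adjusted p under 0.05), with the knockout-labelled level lower in adipocytes relative to liver in each. Over all 14898 tested genes 19.1% were called, 8.73% in that direction. In the mice of 76 days alone Icam2, Tek, Erg, Sox7, Sox18, Tal1, Plvap, Myct1 and Stab1 were not called. On the log2 scale the interaction of junction and surface genes was -2.06 for Pecam1, -1.96 for Cdh5, -1.91 for Esam, -2.04 for Cldn5, -1.76 for Icam2, -2.25 for Emcn, -1.86 for Cd93, -1.90 for Clec14a and -2.24 for Mmrn2. For receptors and signalling genes it was -2.11 for Kdr, -2.37 for Flt1, -1.97 for Tek, -2.14 for Tie1, -2.02 for Ptprb, -1.85 for Eng and -1.66 for Robo4. For transcription factors it was -1.70 for Erg, -1.27 for Sox7, -1.91 for Sox17, -1.75 for Sox18 and -1.83 for Tal1. The remaining blood vascular genes had -2.19 for Egfl7, -2.05 for Vwf, -2.05 for Plvap, -2.16 for Aqp1, -2.03 for Rasip1, -2.18 for Ushbp1, -1.91 for Myct1 and -2.10 for She. Of the lymphatic and sinusoidal genes, Flt4 had -2.08 and Stab1 -1.68.

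Across 136 groups of 4 libraries, 4 held a library far from the other 3, where chance gives about 1 in 20 such groups. All were liver groups. Flt1 was 3.32 CPM in KO-1139, below the other knockout-labelled livers, Eng was 73.3 CPM in KO-1151, above them, and Nos3 was 2.88 CPM in KO-1152, below them. Tek was 7.03 CPM in WT-1136, below the other wild-type livers.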

How the results depend on the processing

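In adipocytes the count of blood vascular genes lower in knockout-labelled mice was 29 in every alternative except without KO-1152, where it was 28, and the median log2 difference with a library left out was -2.05 to -1.56. The lymphatic and sinusoidal genes called lower numbered 1 in the mice of 76 days and 1 to 3 with a library left out. Over all genes 1294 were higher and 3897 lower with library totals, and 832 and 898 in the mice of 76 days. The interaction called 684 genes higher and 2242 lower with library totals, and 347 and 319 in the mice of 76 days, where 1 lymphatic or sinusoidal gene was called. With a library left out it called 26 to 29 blood vascular and 1 to 2 lymphatic or sinusoidal genes. In liver DESeq2 called 54 genes higher and 50 lower. Under edgeR 1 was lower with no low-count filter, with age as a covariate and with all 16 libraries, 0 were higher in the mice of 76 days, and 1 to 3 were higher and 0 to 1 lower with a library left out. Between tissues in wild-type mice, library totals gave 1 lymphatic or sinusoidal gene higher, 1 lower, and 3066 genes lower in all, and leaving out a library gave 0 to 1 blood vascular genes lower and 0 to 1 higher and 1 to 3 lower among the 4. In knockout-labelled mice leaving out a library gave 16 to 21 higher and 3 to 4 lower. Library totals put the median of all genes at -0.20 in adipocytes, 0.71 and 0.42 between tissues in wild-type and knockout-labelled mice, and -0.24 in the interaction.

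The replicate block by mouse gave 28 blood vascular genes in the interaction and 16 higher and 4 lower between tissues in knockout-labelled mice. It gave 28 higher between tissues in wild-type mice and changed no other call of the 34 genes.

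Signs turned in 56 values, none called in either fit. Nos3 in adipocytes was 0.00148 with age as a covariate and -0.113 to 0.0607 with a library left out, and Lyve1 -1.18 to 0.0285. In liver, library totals gave 0.0102 for Clec14a and 0.00285 for Robo4. The mice of 76 days gave 0.255 for Icam2, -0.204 for Tek, 0.0271 for Robo4 and -0.0035 for Sox17, and age as a covariate -0.0805 for Tek. With a library left out the liver ranges were -0.0571 to 0.0857 for Clec14a, -0.26 to 0.027 for Erg, -0.223 to 0.223 for Icam2, -0.453 to 0.429 for Lyve1, -0.00826 to 0.144 for Plvap, -0.127 to 0.0554 for Robo4, -0.0386 to 0.251 for Sox17, -0.00169 to 0.351 for Sox7, -0.03998 to 0.137 for Stab2, -0.0859 to 0.135 for Tek and -0.154 to 0.149 for Vwf. Between tissues in wild-type mice, library totals gave 0.311 for Clec14a and 0.0695 for Stab1, and Plvap ranged from -0.245 to 0.44 with a library left out. In knockout-labelled mice library totals gave 0.389 for Ushbp1 and 0.0792 for Myct1, the mice of 76 days 0.355 for Ushbp1 and the block -0.055 for Lyve1, and ranges with a library left out were -0.496 to 0.703 for Lyve1, -0.0166 to 0.244 for Ptprb and -0.226 to 0.172 for Ushbp1. The interaction of Lyve1 was 0.269 in the mice of 76 days and -0.967 to 0.221 with a library left out. The cause of these changes was not tested. Stab2 in adipocytes rests on 20 to 68 counts per library.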
